A study of Mus musculus with 12 samples.

Results

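The genes described here encode the subunits of the oxidative phosphorylation system, in 4T1 tumours of mice that received endothelial extracellular vesicles (EVs) loaded with a miRNA mimic. Members were the protein-coding genes whose symbols begin with Nduf followed by a, b, c, s or v and a number, with Uqcr, with Cox followed by a number from 4 to 8, or with Atp5, the 4 Sdh subunit genes, and the protein-coding genes of the mitochondrial genome. Of 98 genes with such symbols, 93 had at least 10 estimated reads in at least 3 of 12 libraries and were kept, out of 15459 genes that passed the same filter (14706 of them protein-coding). They comprised 80 genes of the nuclear genome and 13 of the mitochondrial genome. The 5 genes below the filter were Cox6a2, Cox7b2, Cox8b, Cox8c and a second gene identifier named Atp5o. The rule itself uses symbols and a read filter only.

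4T1 is a mouse triple-negative mammary carcinoma line, and 100000 of its cells had been placed under the skin of the right flank. The hosts were female BALB/c animals aged 6 to 8 weeks. All mice received EVs of the mouse endothelial line MS-1 into the tissue around the tumour, with 3 µg given each time, first on day 5 and then every 2 days, and the groups differed only in the mimic that had been electroporated into these EVs. The control mimic (ctrl) was cel-miR-67, a worm miRNA, and the other groups received miR-222-3p, miR-142-5p or miR-183-5p. On day 21, poly(A) RNA of 3 tumours per group was sequenced, 12 tumours in all, and a tumour is named here by its group and the number in its label. The labels number the 3 tumours of a group and say no more of how they were handled, so that p-values measure only the spread between these tumours.

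Each library held 20285968 to 27021401 estimated reads, and libraries of the same group differed from each other by far more than sampling noise. The labelled tumour tissue expressed its epithelial markers: the keratins Krt8 and Krt18 lay at 481 to 732 and at 632 to 1046 TPM (transcript abundance scaled for length and library size) over the 12 tumours. These are whole tumours, which also hold macrophages, neutrophils, fibroblasts and vessels, and in such bulk RNA fewer cells of a type and less RNA per cell cannot be told apart. The library of miR-183-5p tumour 3 stood apart by skeletal muscle RNA: its 12 muscle markers summed to 587 TPM, against 69.4 to 113 TPM in the other 11.

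Oxidative phosphorylation couples the oxidation of NADH and succinate to the synthesis of ATP in the inner mitochondrial membrane. Complexes I (NADH dehydrogenase), III (cytochrome bc1) and IV (cytochrome c oxidase) pump protons, complex II (succinate dehydrogenase) feeds electrons without pumping, and complex V (ATP synthase) uses the proton gradient. Except for complex II, each complex is assembled from subunits of both genomes: nuclear mRNAs are translated in the cytosol and their products imported. Mitochondrial mRNAs are transcribed as long polycistrons, cleaved, in most cases polyadenylated, and translated inside the organelle.

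The mature miRNAs whose mimics were injected are shown first, because their seeds (bases 2 to 8, in capitals) were searched in the 3′ ends of the members. The sequences are those of RefSeq on build GRCm38.p6.
miR-142a-5p, chr11:87756867-87756887, plus strand: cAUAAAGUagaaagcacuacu
miR-183-5p, chr6:30169711-30169732, minus strand: uAUGGCACugguagaauucacu
miR-222-3p, chrX:19146901-19146923, minus strand: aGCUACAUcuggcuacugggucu
None of the 80 nuclear members held a match to these seeds in the 3′ untranslated region of its most abundant coding transcript. Over all 14590 genes with such a region, a seed match (the reverse complement of bases 2 to 8, with or without a following A) was present in 14.2% for the miR-142-5p seed, 9.37% for that of miR-183-5p and 9.5% for that of miR-222-3p. The members' regions were short, with a median of 148 bases against 985 over all genes. The absence of these letters says nothing of other kinds of binding.

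Levels were ordered by genome. On the TPM scale, which is per length, the mean over 12 tumours had a median of 164 among the 80 nuclear members and of 3476 among the 13 mitochondrial members. In complex I, Ndufb9, an accessory subunit of the membrane arm, had the highest mean among nuclear members at 539 TPM (461 to 631 over the tumours), and Ndufb4, another membrane arm subunit, the lowest at 26.6 TPM (20.1 to 33.9). The rank of Ndufb4 rests on how reads were divided with its pseudogene copy Ndufb4c, which took 67.6% to 73.8% of them. Ndufb2 had the next lowest mean in complex I, 41.1 TPM. In complex II the range was narrow, from the iron-sulphur subunit Sdhb at 102 TPM to the membrane anchor Sdhd at 186 TPM. In complex III the hinge protein Uqcrh had 677 TPM and the core protein Uqcrc1 78.1 TPM. In complex IV Cox6c reached 936 TPM, the highest mean of all nuclear members, and Cox6b2, the testis-type form of subunit 6b, had 1.63 TPM, the lowest. In complex V the catalytic beta subunit Atp5b had 840 TPM and Atp5s, coupling factor B, 9.45 TPM.

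The 13 mitochondrial genes together had a far higher summed TPM than the 80 nuclear ones. TPM is per length, so that short genes weigh heavily in such a sum. mt-Atp8 had the highest mean, 13396 TPM, on a mean of 12631 normalised counts. mt-Atp6, which overlaps it on the genome, had 8051 TPM on 64264 normalised counts. The mitochondrial sum was 77262, 57253 and 58137 in ctrl, 60262, 94915 and 61725 with miR-142-5p, 61783, 64775 and 61572 with miR-183-5p, and 73971, 71764 and 70102 with miR-222-3p. The sum of the nuclear members was 19773, 18057 and 17045 in ctrl, 19606, 17813 and 17471 with miR-142-5p, 18048, 18621 and 18320 with miR-183-5p, and 17074, 18640 and 19499 with miR-222-3p. Thus the nuclear sum stayed between 17045 and 19773 in the 12 tumours with all groups overlapping, while the mitochondrial sum was highest in miR-142-5p tumour 2. As a share of all estimated reads, the mitochondrial members took 4.12% there (95% Wilson interval 4.11 to 4.13) and 2.30% (2.29 to 2.30) in ctrl tumour 2, the lowest; such intervals cover counting error only.

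**Figure D1:**
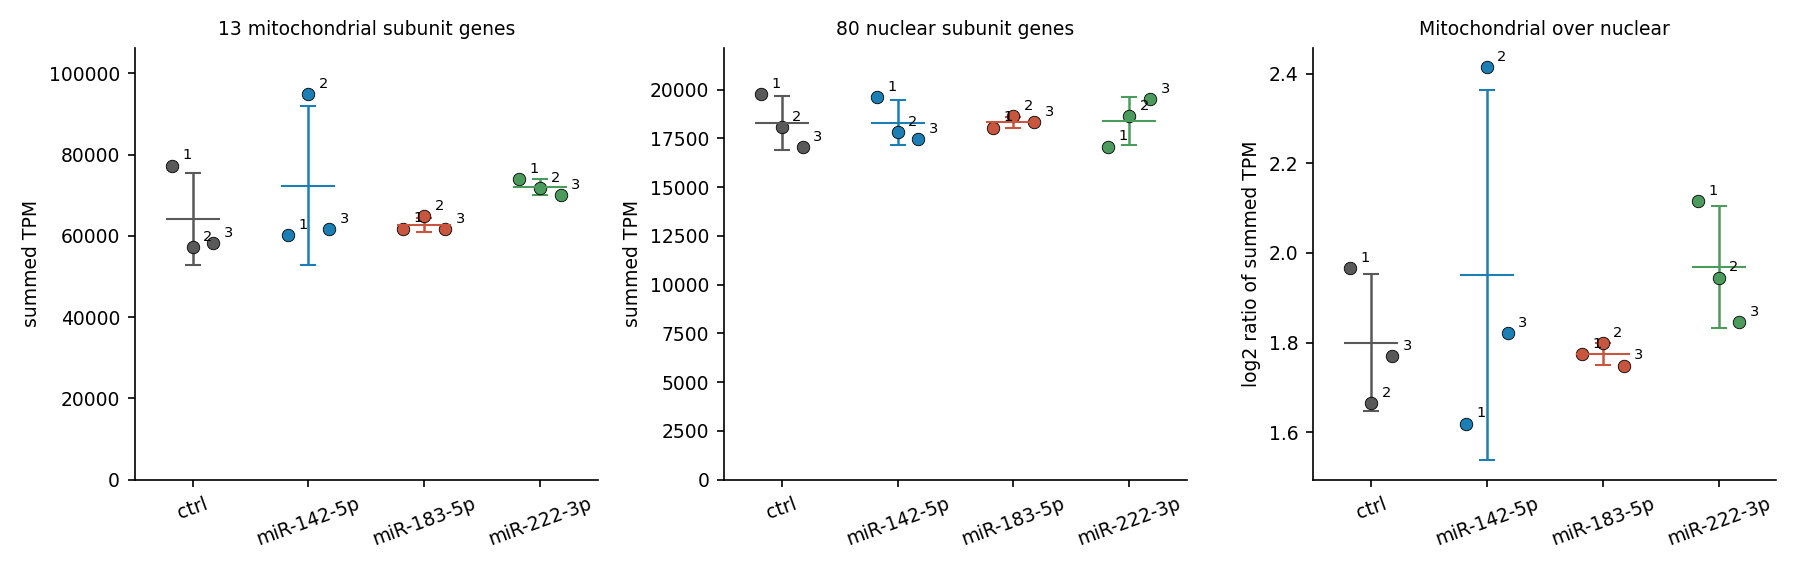
Summed TPM of the 13 mitochondrial and of the 80 nuclear subunit genes, and the log2 of their ratio, for each of the 12 tumours; points are tumours with their label number, horizontal marks the group mean and bars the SD of 3 tumours. The nuclear sums overlap in all groups, and miR-142-5p tumour 2 has the highest mitochondrial sum, 94915 TPM.

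The log2 ratio of the mitochondrial to the nuclear sum gave the balance of the genomes in each tumour. It was 1.97, 1.66 and 1.77 in ctrl, 1.62, 2.41 and 1.82 with miR-142-5p, 1.78, 1.80 and 1.75 with miR-183-5p, and 2.12, 1.95 and 1.85 with miR-222-3p. The group means were 1.80 ± 0.15 in ctrl, 1.95 ± 0.41 with miR-142-5p, 1.77 ± 0.02 with miR-183-5p and 1.97 ± 0.14 with miR-222-3p (SD, n = 3 each). All 3 treated groups overlapped ctrl, and the differences of 0.15, -0.03 and 0.17 from ctrl were close to or below the SD within groups. The miR-142-5p difference was set by tumour 2: without that tumour it was -0.08. The miR-222-3p difference ranged from 0.10 without miR-222-3p tumour 1 to 0.25 without ctrl tumour 1, and that of miR-183-5p was 0.06 without ctrl tumour 1. Between the mimics, all miR-183-5p tumours lay below all miR-222-3p tumours, both in this ratio and in the mitochondrial sum. Some of these genes share reads with near-identical pseudogene copies, described below. With the copies summed in, the ratios overlapped, at 1.89, 1.90 and 1.78 with miR-183-5p and 2.13, 1.97 and 1.89 with miR-222-3p. The mitochondrial sum stayed apart on the TPM scale, at 67341 to 75993 TPM against 78249 to 80474 TPM. In normalised counts with copies summed, mt-Co1, mt-Co2, mt-Co3, mt-Atp6 and mt-Nd3 each overlapped between miR-183-5p and miR-222-3p. For mt-Co1 the values were 207241 to 244124 with miR-183-5p against 221301 to 272880 with miR-222-3p.

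No member changed between groups by the criterion used. With DESeq2's Wald test and Benjamini-Hochberg adjustment over all genes, 0 of the 93 members had an adjusted p under 0.05 in miR-142-5p against ctrl, where 0.00649% of all genes did, and 0 in miR-183-5p against ctrl, where the share of all genes was 0%. In miR-222-3p against ctrl the count was also 0, against 0.026% of all genes. Between the mimics it was 0 when miR-183-5p was compared with miR-142-5p (0.0519% of all genes) or with miR-222-3p (0.0324%) and when miR-142-5p was compared with miR-222-3p (0.0389%), and the likelihood ratio test over the 4 groups called 0 members and 0.0584% of all genes. edgeR's quasi-likelihood test, run for the 6 pairs of groups, called 0 of all 15459 genes in each, and so 0 members. Calls were rare among all genes as well, so that 0 of 93 says little about the members. With miR-222-3p against ctrl, 2 of the 4 genes called were pseudogene copies of members, Gm28437 of mt-Co3 and Gm10925 of mt-Atp6 (DESeq2 adjusted p of 2.78e-05 and 0.00351), both lower with miR-222-3p, and 0 genes were called when protein-coding genes alone were fitted. Both copies were also almost without reads in miR-183-5p tumour 3, at 0.01 and 0.44 estimated reads. The division of reads with such copies is described below.

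At an unadjusted p under 0.05, members were as few as, or fewer than, the share of all genes in most comparisons, the highest being 3 of 93. There was 1 such member in miR-142-5p against ctrl, where 3.56% of all genes passed, 3 in miR-183-5p against ctrl (3.22%) and 3 in miR-222-3p against ctrl (2.29%). Between mimics there was 1 for miR-183-5p compared with miR-142-5p (7.95%), 3 for miR-183-5p compared with miR-222-3p (3.24%) and 1 for miR-142-5p compared with miR-222-3p (3.59%), and the test over the 4 groups gave 3 (4.74%). The normalised counts of a treated group and of ctrl did not overlap for 2 members with miR-142-5p (6.07% of all genes), 3 with miR-183-5p (9.17%) and 4 with miR-222-3p (5.5%). For miR-183-5p compared with miR-222-3p this held for 7 members (9.06% of all genes), of which 6 were mitochondrial, and 13 of 13 mitochondrial log2 fold changes lay below 0 there. Of these 6, mt-Co2 and mt-Atp6 share reads with pseudogene copies and overlapped once the copies were summed in. mt-Co2 then had 81880 to 98687 normalised counts with miR-183-5p against 88814 to 104828 with miR-222-3p. mt-Atp6 had 61659 to 70376 against 65583 to 74618.

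The fold changes were small for most members, and their intervals bound them. Among the nuclear members the median log2 fold change was -0.00052 with miR-142-5p, 0.01 with miR-183-5p and 0.01 with miR-222-3p, beside -0.00500, -0.01 and -0.01 over all genes, and 40, 44 and 42 of 80 lay above 0. The 95% interval of the fold change lay within 2-fold of ctrl for 77, 76 and 75 of the 80, and within 1.5-fold for 74, 74 and 73. Among the 13 mitochondrial members the median was 0.18, -0.06 and 0.08, and 13, 4 and 11 of 13 lay above 0; these genes are transcribed together and are not separate evidence of a direction. Their interval lay within 2-fold for 13, 13 and 12 members but within 1.5-fold for only 4, 9 and 7. Without miR-142-5p tumour 2 the mitochondrial median against ctrl was -0.13 in place of 0.18. The direction with the other mimics also rested on single tumours: the miR-183-5p median was 0.14 without ctrl tumour 1 and -0.17 without ctrl tumour 3, and the miR-222-3p median 0.27 and -0.01.

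**Figure D2:**
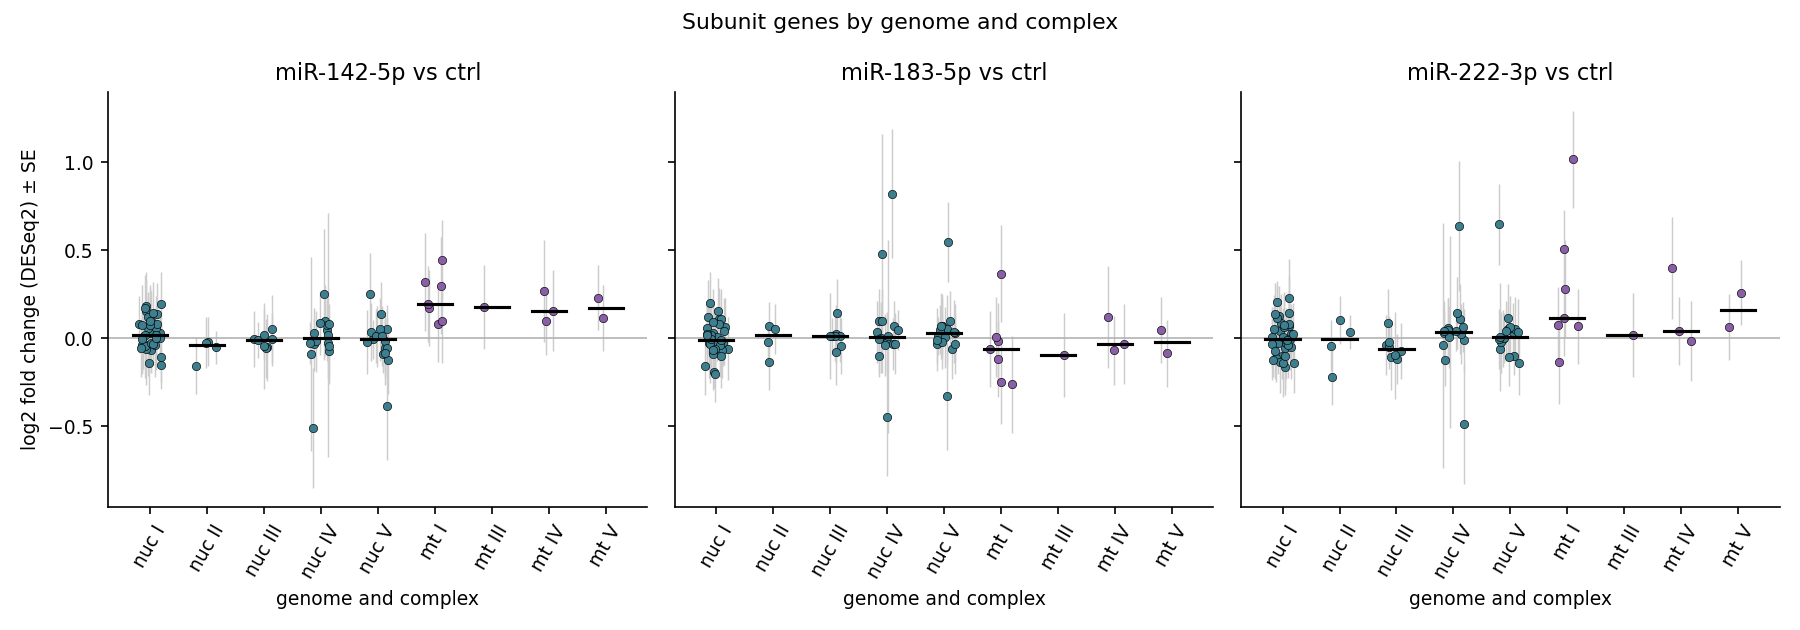
log2 fold changes against ctrl with their standard errors (DESeq2), for each subunit gene, grouped by genome (nuc, nuclear; mt, mitochondrial) and complex; black bars are medians. Most nuclear genes lie near 0, the mitochondrial genes lie above 0 with miR-142-5p, and mt-Nd3 is the highest point with miR-222-3p at 1.02.

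The larger movement was between tumours of one group. Between ctrl tumours 1 and 3, 76 of the 80 nuclear members were higher in tumour 1, with a median log2 difference of 0.43, whereas 50.5% of all genes were. Between miR-142-5p tumours 1 and 3, 70 of 80 were higher in tumour 1, with a median of 0.32. In the miR-222-3p group only 4 of 80 were higher in tumour 1 than in tumour 3, with a median of -0.36. The miR-183-5p tumours lay closer together: 42 of 80 were higher in tumour 1 than in tumour 3, with a median of 0.01. In ctrl, miR-142-5p and miR-222-3p the nuclear members of complexes I to V thus lay together on the same side in single tumours. These counts describe pairs of single libraries and carry no test.

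**Figure D3:**
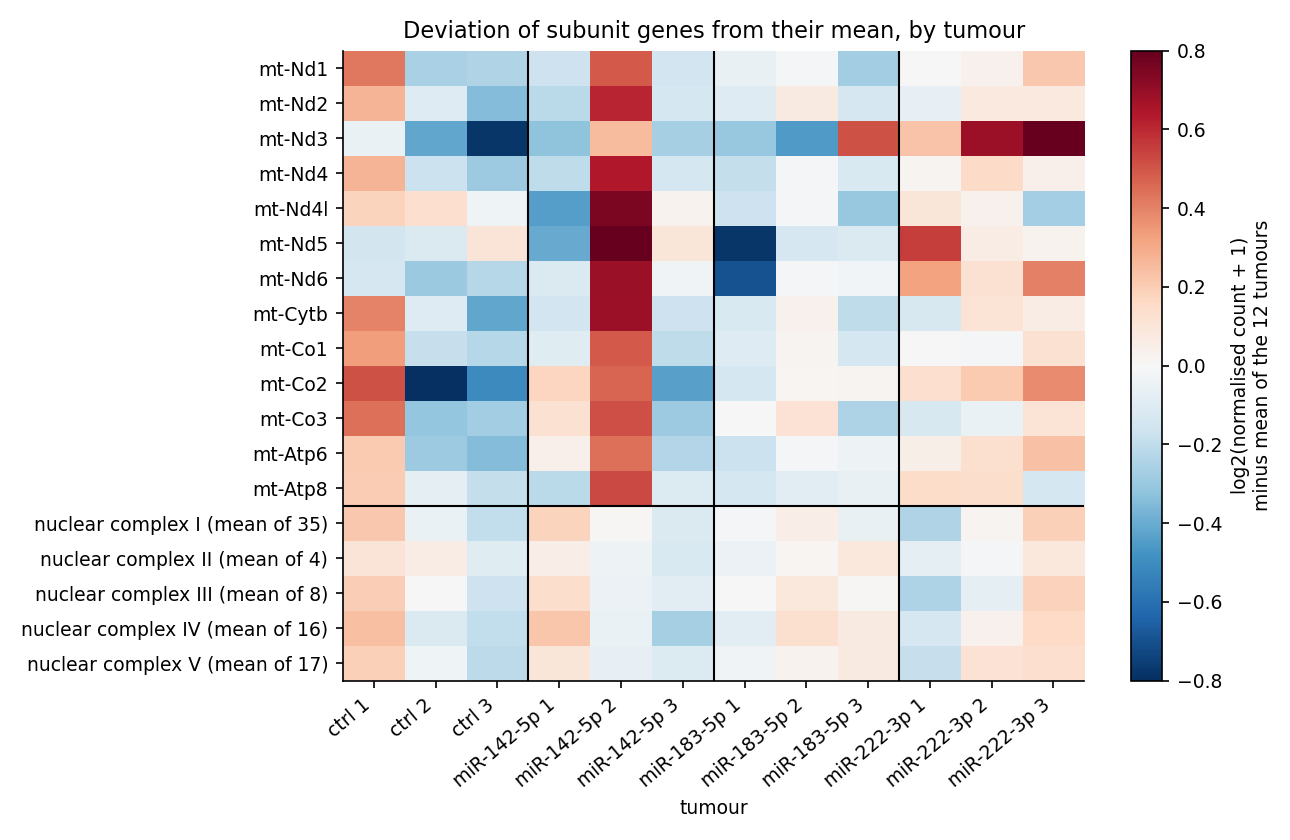
Deviation of each mitochondrial subunit gene, and of the mean of the nuclear subunit genes of each complex, from its mean over the 12 tumours, as log2(normalised count + 1); columns are tumours, red is higher, and the colours are capped at the ends of the scale. miR-142-5p tumour 2 is above the mean in each of the 13 mitochondrial genes but near it in the nuclear complexes, and ctrl tumour 1 is above the mean in every nuclear complex.

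The mean deviation of the nuclear members from their average over the 12 tumours was 0.21, -0.05 and -0.19 in ctrl, 0.16, -0.03 and -0.14 with miR-142-5p, -0.03, 0.06 and 0.01 with miR-183-5p, and -0.20, 0.03 and 0.17 with miR-222-3p, in log2(normalised count + 1). For the 13 mitochondrial members the deviations were 0.22, -0.23 and -0.29, then -0.15, 0.57 and -0.16, then -0.23, -0.04 and -0.09, and finally 0.09, 0.13 and 0.17. In ctrl the genomes moved alike, with tumour 1 highest in both, whereas miR-142-5p tumour 2 was high in the mitochondrial members and near 0 in the nuclear ones.

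Some marker lists moved with these tumours. The 12 hypoxia response genes had their lowest mean deviation in miR-142-5p tumour 2, at -0.59, and their summed level was 3417 to 5377 TPM with miR-142-5p, 4441 to 4803 in ctrl, 5315 to 6157 with miR-183-5p and 3906 to 4750 with miR-222-3p. The 8 macrophage markers had their highest mean deviation in that tumour, at 0.52, and summed to 1895 to 2777 TPM with miR-142-5p, 1782 to 2238 in ctrl, 1169 to 1754 with miR-183-5p and 1558 to 2327 with miR-222-3p. The 6 fibroblast and the 6 smooth muscle and pericyte markers were also lowest in that tumour, at -0.71 and -0.67. Epithelial markers, all 7 of which were detected, were at -0.67 in miR-222-3p tumour 1 and at -0.35 in ctrl tumour 3, where the nuclear members were also low, but at -0.14 in ctrl tumour 1, where the nuclear members were highest, and at 0.42 in ctrl tumour 2, where the nuclear members were near their mean. The part of these differences in the levels of the subunit genes was not tested.

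Complex I holds 7 mitochondrial members, among them mt-Nd3, the member with the lowest p of all 93 against ctrl. mt-Nd3 (chrM:9459-9806, plus strand, build GRCm38), a subunit of the proton-pumping membrane arm, had 3202, 2495 and 1941 normalised counts in ctrl, 2664, 3967 and 2760 with miR-142-5p, 2696, 2429 and 4725 with miR-183-5p, and 3896, 5332 and 6237 with miR-222-3p. The 3 miR-222-3p tumours were above the 3 ctrl tumours, and miR-183-5p tumour 3 was among the high ones. The log2 fold change of miR-222-3p against ctrl was 1.02 ± 0.28 (SE), with an unadjusted p of 0.000218 and a DESeq2 adjusted p of 0.337. The adjusted p fell to 0.0201 when DESeq2 was fitted to those 2 groups alone and to 0.0115 without miR-183-5p tumour 3, and it was 1.0 with edgeR.

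The reads of mt-Nd3 were shared with a copy. Gm28438, annotated as an unprocessed pseudogene in a stretch of mitochondrial sequence on chromosome 1 (chr1:24612775-24613119, minus strand), differs from mt-Nd3 over 345 bases by the single substitution T3C, counted from 1 at the first base of the transcripts. The first 90 bases of each are printed to show how little there is to tell them apart, with the differing base in capitals.
mt-Nd3: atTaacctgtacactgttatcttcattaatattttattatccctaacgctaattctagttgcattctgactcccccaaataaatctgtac
Gm28438: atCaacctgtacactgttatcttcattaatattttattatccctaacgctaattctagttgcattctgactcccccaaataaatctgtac
Of the reads assigned to the pair, mt-Nd3 received 34.0%, 39.2% and 35.2% in ctrl, 39.01%, 34.6% and 44.1% with miR-142-5p, 38.3%, 30.0% and 67.2% with miR-183-5p, and 59.6%, 63.1% and 69.6% with miR-222-3p. The 4 libraries with the high share were those of the miR-222-3p tumours and of miR-183-5p tumour 3. With the reads of gene and copy summed, the normalised counts were 9448, 6374 and 5529 in ctrl and 6526, 8421 and 8933 with miR-222-3p, which overlapped, and the log2 fold change was 0.16 ± 0.24 (SE; DESeq2 adjusted p = 1.0).

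The same 4 libraries differed from the other 8 in the reads of other mitochondrial members with a copy on chromosome 1. mt-Co2, the copper-binding subunit of complex IV that accepts electrons from cytochrome c, received 58.2% to 92.9% of the reads of its pair with Gm28661 in 8 libraries and at least 99.7% in these 4. Its log2 fold change with miR-222-3p was 0.40 ± 0.29 alone and 0.02 ± 0.22 with its copies summed. For mt-Atp6, the proton channel subunit of complex V, the copy Gm10925 took 6.73% to 16.9% of the pair's reads in the 8 libraries and at most 0.0626% in the 4, and the log2 fold change with miR-222-3p was 0.26 ± 0.19 alone and 0.06 ± 0.21 when summed. The ratio of the genomes with the copies summed in was 0.13, -0.06 and 0.08 from ctrl on the log2 scale for the 3 mimics. What made the assignment of reads differ in these 4 libraries was not tested.

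**Figure D4:**
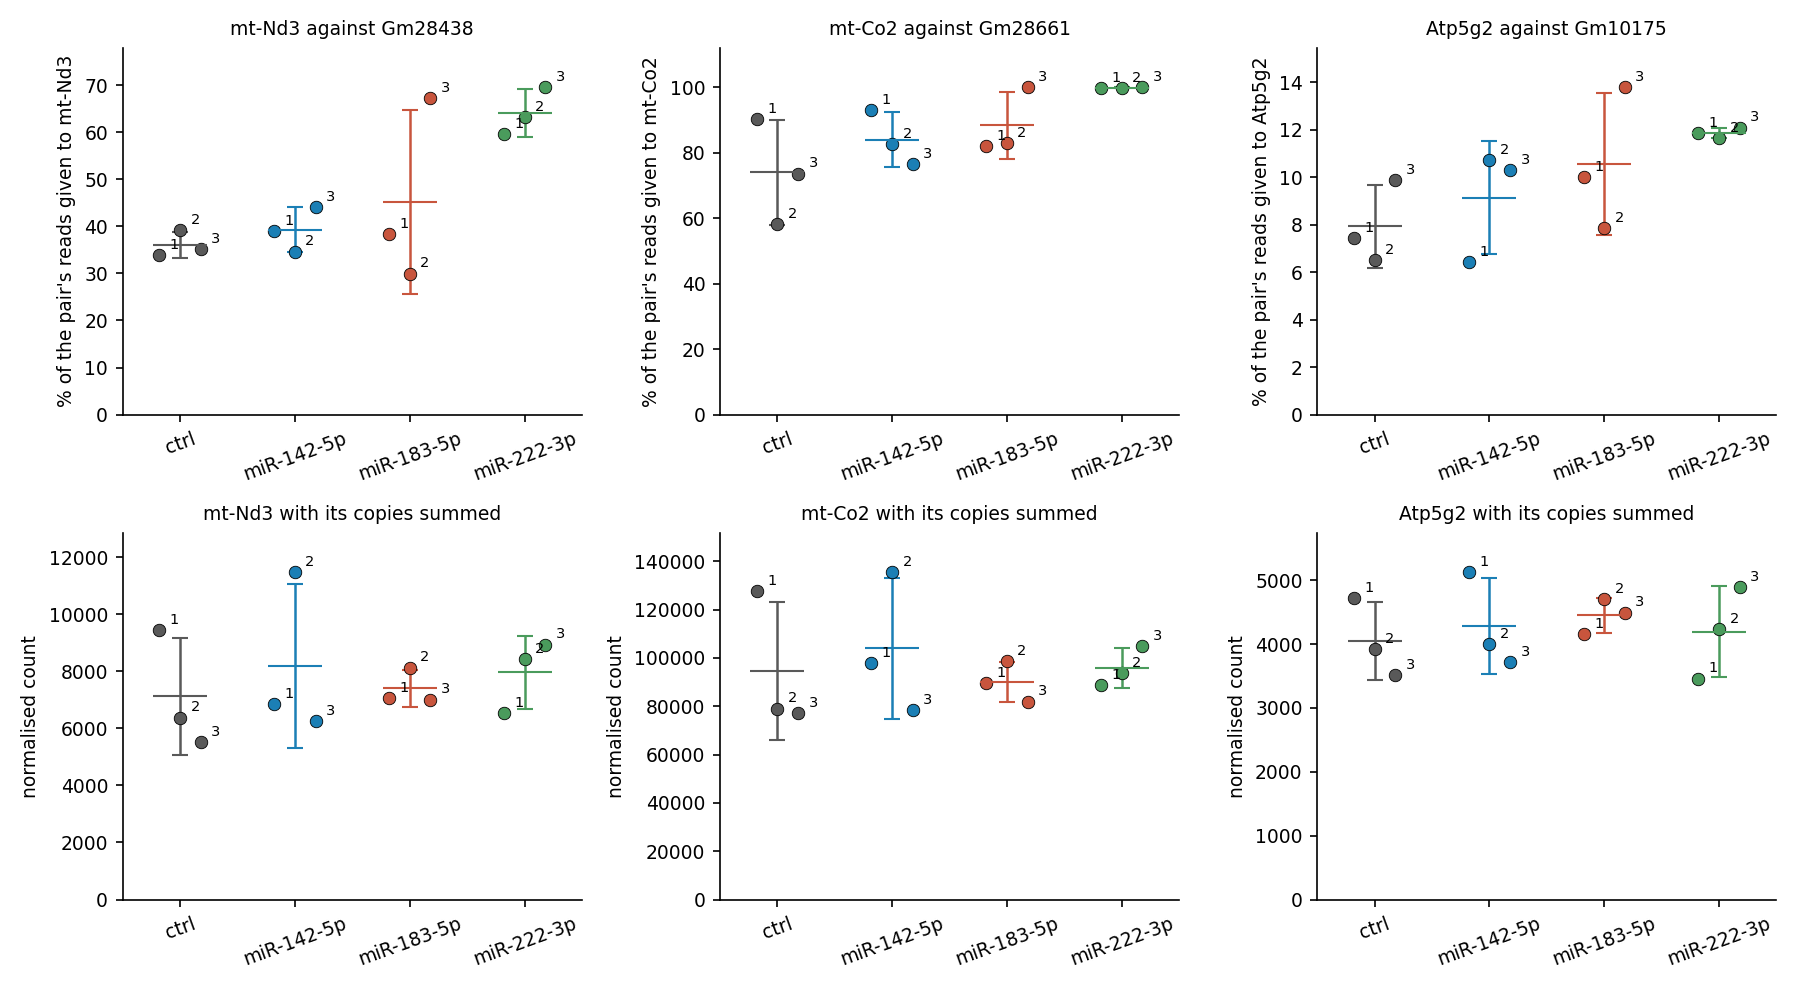
Top, percentage of the reads of a gene and its near-identical copy that were assigned to mt-Nd3, mt-Co2 or Atp5g2 in each tumour; bottom, normalised counts with all copies of that gene summed. Points are tumours with their label number and bars the SD of 3; miR-183-5p tumour 3 and the 3 miR-222-3p tumours are the highest in each top panel, and the groups overlap in each bottom panel.

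mt-Nd6 (chrM:13552-14070, minus strand), which is encoded on the strand opposite to the other mitochondrial subunits, had no copy among the genes tested. Its normalised counts were 5132, 4587 and 4817 in ctrl, 5192, 9104 and 5518 with miR-142-5p, 3484, 5580 and 5559 with miR-183-5p, and 7047, 6137 and 7447 with miR-222-3p. All miR-142-5p and all miR-222-3p tumours were above the ctrl tumours, by log2 fold changes of 0.45 ± 0.23 and 0.51 ± 0.23 (SE), with unadjusted p of 0.0475 and 0.0250 and DESeq2 adjusted p of 1.0 in both. Without miR-142-5p tumour 2 the log2 fold change of miR-142-5p was 0.15. The strand setting used to quantify the reads is not given, so whether opposite-strand reads were counted for mt-Nd6 is not known. The libraries were of poly(A) RNA, and how far the level of mt-Nd6 depends on a poly(A) tail was not tested.

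mt-Nd5 (chrM:11742-13565, plus strand), a pumping subunit whose 3′ end overlaps that of mt-Nd6 by 14 bases, varied most within the miR-142-5p and miR-183-5p groups. It had 12078, 12362 and 14362 normalised counts in ctrl, 10095, 24090 and 14282 with miR-142-5p, 7805, 12203 and 12348 with miR-183-5p, and 19645, 13921 and 13646 with miR-222-3p. miR-183-5p compared with miR-142-5p gave a log2 fold change of -0.58 ± 0.28 (DESeq2 adjusted p = 0.570), and these groups overlapped; without miR-142-5p tumour 1 the adjusted p was 0.0482. The miR-183-5p tumours lay below the miR-222-3p tumours, by a log2 fold change of -0.55 ± 0.28 with an unadjusted p of 0.0486.

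The other mitochondrial members of complex I were close to ctrl. The log2 fold changes of mt-Nd1, mt-Nd2, mt-Nd4 and mt-Nd4l, all membrane arm subunits, lay between 0.08 and 0.20 with miR-142-5p, between -0.25 and -0.01 with miR-183-5p, and between -0.14 and 0.12 with miR-222-3p, with standard errors of 0.21 to 0.24. In miR-142-5p tumour 2, mt-Nd1 was listed at 4818 TPM, mt-Nd2 at 2553, mt-Nd4 at 2875 and mt-Nd4l at 4151 TPM. Each of these was the highest value of that gene in the 12 tumours.

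Complex I holds 35 nuclear members, of which Ndufs1, the large iron-sulphur subunit of the NADH-oxidising module (chr1:63143596-63176833), had the lowest p. Its normalised counts were 2374, 2196 and 2252 in ctrl, 2007, 2025 and 2105 with miR-142-5p, 1986, 2023 and 1974 with miR-183-5p, and 2297, 2059 and 1900 with miR-222-3p. The miR-142-5p and miR-183-5p tumours were all below ctrl, by a log2 fold change of -0.15 ± 0.09 (unadjusted p = 0.105) and -0.19 ± 0.09 (unadjusted p = 0.0433), with DESeq2 adjusted p of 1.0 in both. Ndufs1 was also among the nuclear members that varied least over the 12 tumours, from 58.4 to 79.3 TPM. Ndufa10 had 1641, 1774 and 1728 normalised counts in ctrl and 1858, 2087 and 1989 with miR-222-3p, so that these groups did not overlap, at a log2 fold change of 0.21 ± 0.12 (unadjusted p = 0.0834); it is named here after its values were seen. Among the largest differences from ctrl in complex I were also Ndufc2 with miR-142-5p (0.19 ± 0.18), Ndufs8 and Ndufv3 with miR-183-5p (-0.20 ± 0.16 and 0.20 ± 0.18), and Ndufb8, Ndufa1 and Ndufb4 with miR-222-3p (-0.17 ± 0.15, -0.14 ± 0.17 and 0.23 ± 0.22), each a log2 fold change with its SE and none with an unadjusted p under 0.05. Ndufb4 shares its reads with Ndufb4c, and with copies summed its log2 fold change with miR-222-3p was -0.01 ± 0.16.

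All 4 members of complex II are nuclear. The summed TPM of Sdha, Sdhb, Sdhc and Sdhd was 542 ± 15.8 in ctrl, 517 ± 8.25 with miR-142-5p, 535 ± 27.6 with miR-183-5p and 535 ± 7.53 with miR-222-3p (SD, n = 3). Sdhb carried the largest difference, with log2 fold changes of -0.16 ± 0.16 with miR-142-5p and -0.22 ± 0.16 with miR-222-3p, and ctrl tumour 2 was its highest value at 139 TPM against 85.9 to 109.7 TPM in the other 11 tumours.

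In complex III, the mitochondrial member mt-Cytb, which carries the b haems of the bc1 complex, had 4163, 3277 and 2740 TPM in ctrl, 2869, 5426 and 3265 with miR-142-5p, 3178, 3393 and 2941 with miR-183-5p, and 3359, 3698 and 3405 with miR-222-3p. The groups overlapped, with log2 fold changes of 0.18 ± 0.24, -0.09 ± 0.24 and 0.02 ± 0.24. The 8 nuclear members summed to 2005 ± 121 TPM in ctrl, 1999 ± 62.6 with miR-142-5p, 2014 ± 104 with miR-183-5p and 1941 ± 169 with miR-222-3p.

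Complex IV holds 3 mitochondrial members, its catalytic core, and 16 nuclear ones, several of which exist as tissue-specific isoforms. mt-Co1, the subunit of the oxygen-reducing centre, and mt-Co3 had 7968 to 12678 and 8787 to 14965 TPM over the tumours, with the highest value of both in miR-142-5p tumour 2, and their log2 fold changes against ctrl ranged from -0.07 to 0.16. Among the nuclear isoforms the ubiquitous ones dominated: Cox4i1 lay at 602 to 814 TPM, Cox6a1 at 270.5 to 357, Cox6b1 at 521 to 607, Cox7a2 at 281 to 405, Cox7b at 222 to 303 and Cox8a at 309 to 412 TPM. Cox7a2l, a factor of respiratory supercomplexes related to Cox7a2, lay at 264 to 312 TPM. The largest log2 fold change of these 7 against ctrl was 0.10 ± 0.18, for Cox7a2 with miR-183-5p.

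The isoforms with restricted expression were low and more variable. Cox4i2, the isoform of subunit 4 known from lung and from hypoxic cells (chr2:152754173-152765037), had 18.1, 11.5 and 12.0 TPM in ctrl, 11.8, 11.0 and 6.31 with miR-142-5p, 10.4, 12.4 and 7.68 with miR-183-5p, and 9.50, 11.3 and 9.34 with miR-222-3p. The highest tumour was a ctrl tumour, and in normalised counts ctrl overlapped each of the other groups; the log2 fold changes were -0.51 ± 0.34, -0.44 ± 0.34 and -0.49 ± 0.34, with unadjusted p of 0.134, 0.190 and 0.149 in DESeq2. Cox7a1, the heart and muscle isoform (chr7:30184144-30186078), had 2.63 to 8.51 TPM, with its lowest value in miR-183-5p tumour 1 and 8.51 TPM in both miR-183-5p tumour 3 and miR-142-5p tumour 1. Cox6b2 had 0.947 to 2.73 TPM, on a mean of only 8.13 normalised counts a library.

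Ndufa4l2 is the hypoxia-induced paralog of Ndufa4, a subunit first assigned to complex I and now placed in complex IV (chr10:127514967-127517154). It had 58, 76 and 96 normalised counts in ctrl, 122, 67 and 85 with miR-142-5p, 167, 99 and 140 with miR-183-5p, and 78, 96 and 181 with miR-222-3p. The miR-183-5p tumours were above ctrl in normalised counts, but in TPM miR-183-5p tumour 2 (10.1) was below ctrl tumour 3 (10.7). The log2 fold change of 0.82 ± 0.37 had an unadjusted p of 0.0250 and a DESeq2 adjusted p of 1.0, and that of miR-222-3p was 0.64 ± 0.37 (unadjusted p = 0.0838). The 12 hypoxia response genes had mean deviations of 0.31, 0.27 and 0.35 in the same miR-183-5p tumours. The 6 smooth muscle and pericyte markers had 0.35, 0.18 and 0.61 there. In miR-222-3p tumour 3, where Ndufa4l2 was highest, the hypoxia deviation was 0.00 and that of the smooth muscle and pericyte markers 0.58. The part of either list in the level of Ndufa4l2 was not tested. Ndufa4 itself lay at 279 to 348 TPM, with log2 fold changes between -0.10 and 0.04.

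**Figure D5:**
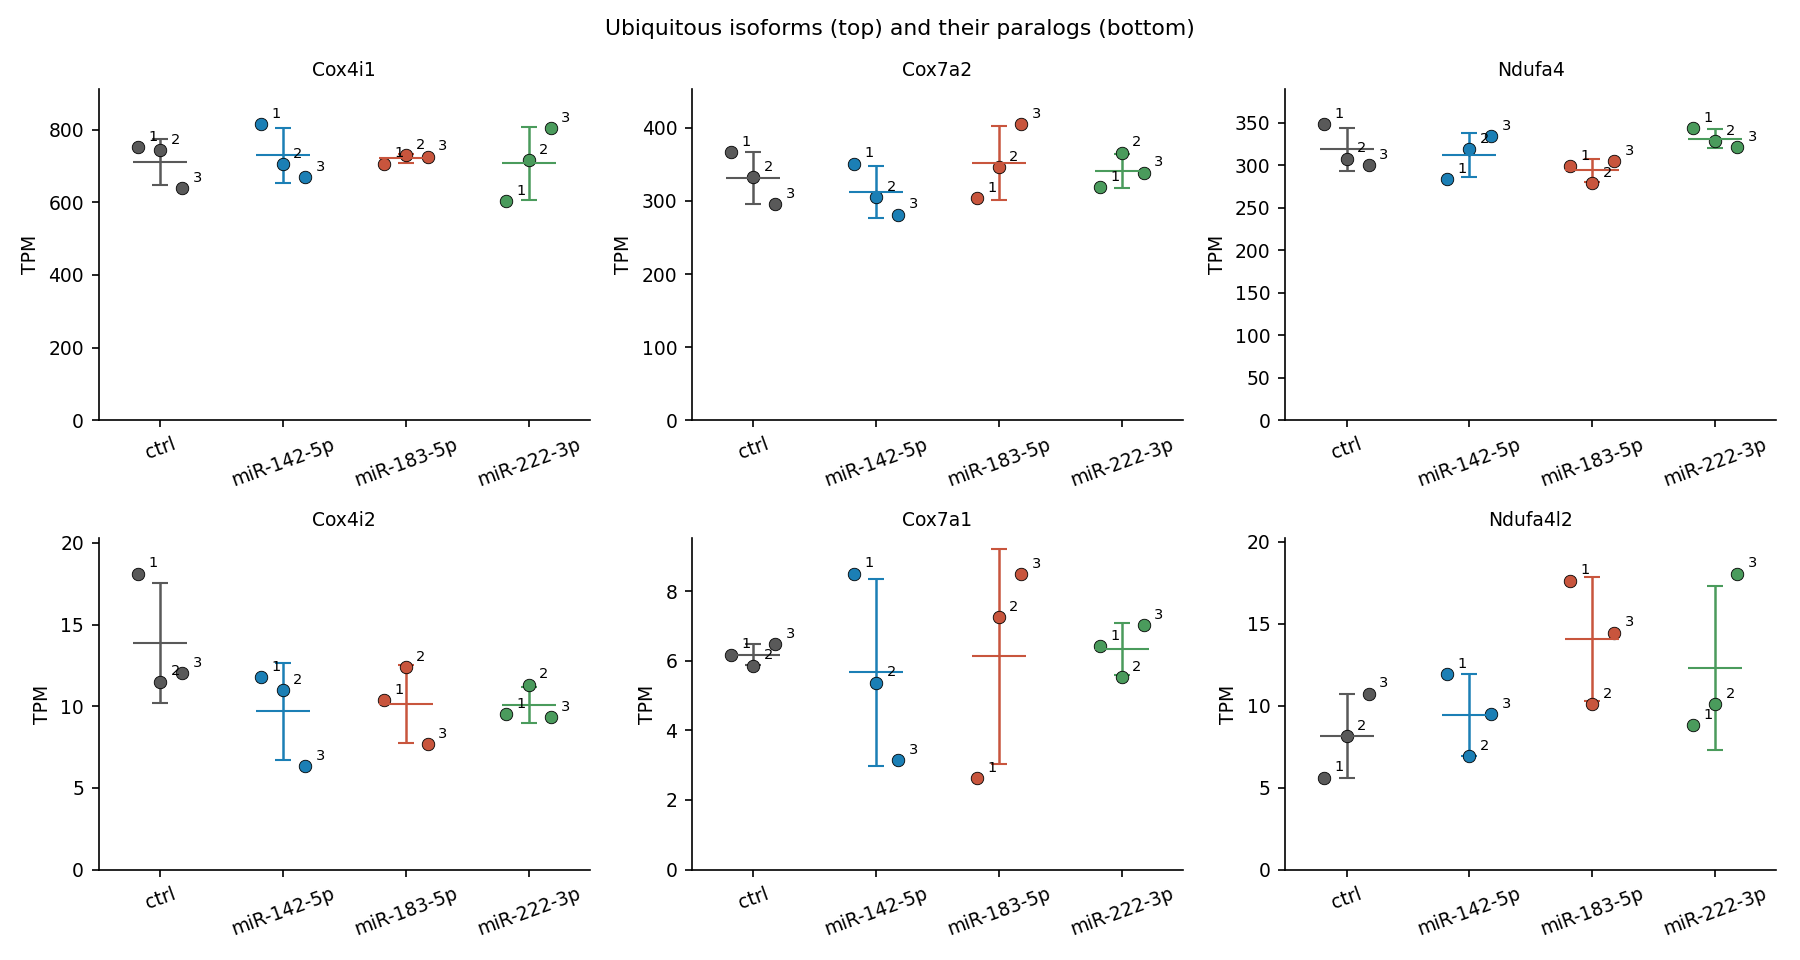
TPM of the ubiquitous Cox4i1, Cox7a2 and Ndufa4 (top) and of their paralogs Cox4i2, Cox7a1 and Ndufa4l2 (bottom) in each tumour; points carry the label number of the tumour, horizontal marks are group means and bars the SD of 3. The paralogs are at 2.63 to 18.1 TPM, and their groups overlap ctrl except for Cox4i2 with miR-222-3p, whose highest tumour (11.3) lies just below the lowest ctrl tumour (11.5).

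Complex V holds 2 mitochondrial and 17 nuclear members. mt-Atp8, a short subunit of the membrane sector, had 10678 to 18890 TPM and log2 fold changes of 0.12, -0.09 and 0.07, each with an SE of 0.19. The nuclear member with the lowest p was Atp5g2, which with Atp5g1 and Atp5g3 encodes an identical mature c subunit of the rotor ring. Atp5g2 (chr15:102662864-102672352, minus strand) had 348, 258 and 349 normalised counts in ctrl, 327, 430 and 382 with miR-142-5p, 413, 370 and 617 with miR-183-5p, and 413, 494 and 590 with miR-222-3p. The tumours of the miR-183-5p and miR-222-3p groups were all above ctrl, with log2 fold changes of 0.55 ± 0.23 and 0.65 ± 0.23, unadjusted p of 0.0161 and 0.00451 and DESeq2 adjusted p of 1.0 in both. Without miR-183-5p tumour 3 the log2 fold change of miR-183-5p was 0.30.

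Atp5g2 also shared its reads. The transcribed processed pseudogene Gm10175 (chr7:23946646-23947290, minus strand) matches the Atp5g2 transcript over 645 bases with 0 differences, beginning at base 83 of 731. Its first 90 bases are given here because they are letter for letter those of the gene, bases 83 to 172.
Atp5g2 and Gm10175: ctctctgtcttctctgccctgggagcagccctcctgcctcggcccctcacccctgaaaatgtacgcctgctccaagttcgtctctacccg
Atp5g2 received 7.43%, 6.49% and 9.87% of the reads of this pair in ctrl, 6.42%, 10.7% and 10.3% with miR-142-5p, 9.99%, 7.87% and 13.8% with miR-183-5p, and 11.9%, 11.7% and 12.1% with miR-222-3p. The 4 highest shares were again those of miR-183-5p tumour 3 and of the miR-222-3p tumours. With gene and copies summed the log2 fold changes were 0.14 ± 0.17 with miR-183-5p and 0.05 ± 0.17 with miR-222-3p (DESeq2 adjusted p = 1.0 in both), and the groups overlapped. By the reads assigned to each gene, Atp5g3 was the most abundant of the 3 isoforms, at 330 to 433 TPM. Atp5g1 lay at 64.5 to 102 TPM and Atp5g2 at 30.8 to 70.8 TPM, but both levels rest on how reads were divided with their copies. Gm10175 alone had group means of 505 to 536 TPM, above the highest value of Atp5g3. Whether Atp5g3 or Atp5g2 was the more abundant thus cannot be told. Atp5s had log2 fold changes of -0.38 ± 0.31 with miR-142-5p and -0.33 ± 0.31 with miR-183-5p.

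Near-identical copies touched other members as well. Of the 93 members, 31 had a pseudogene of at least 95% identity over at least 80% of its length, and 11 had one that passed the read filter. Gm15920 took 51.3% to 61.8% of the reads of its pair with Ndufa12, Ndufb4c took 67.6% to 73.8% with Ndufb4, Gm10039 took 29.9% to 42.4% with Atp5g1, and Gm12338 took 8.59% to 12.6% with Cox7c. Among the mitochondrial members, Gm29216 took 10.2% to 14.8% of the reads of its pair with mt-Co1, and Gm28437 at most 1.72% with mt-Co3. The remaining tested copies, Gm10221 and Gm4045 of Atp5l, Gm10012 of Cox7c, Gm13340 of mt-Co1 and Gm13341 of mt-Co2, took at most 3.94% of their pairs. The levels of these members are therefore uncertain. With copies summed, none of the 11 had an unadjusted p under 0.05 against ctrl, and the log2 fold changes of all 11 lay between -0.10 and 0.20.

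Genes that serve the same complexes but fall outside the symbol rule showed a similar picture. Among 7 further subunits and carriers, 46 assembly factors, 23 genes of mitochondrial DNA expression, 9 regulators and 78 proteins of the mitochondrial ribosome that passed the filter, 0 had an adjusted p under 0.05 in any of the 6 pairs of groups or over the 4 groups (DESeq2). Against ctrl, the number with an unadjusted p under 0.05 was 0, 0, 2, 0 and 0 of these lists with miR-142-5p, 0, 2, 1, 0 and 0 with miR-183-5p, and 0, 0, 1, 0 and 2 with miR-222-3p. The mitochondrial ribosome followed the nuclear subunits within groups, with mean deviations of 0.18, 0.01 and -0.16 in ctrl and of -0.21, 0.02 and 0.14 with miR-222-3p.

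Single genes of these lists included Cyc1, the cytochrome c1 of complex III, at 92.5 to 118 TPM, Cycs, cytochrome c, at 24.1 to 43.2 TPM, and Ndufab1, the acyl carrier subunit of complex I, at 167 to 225 TPM. Tfam, which packages and transcribes mitochondrial DNA, had 46.3, 58.6 and 53.1 TPM in ctrl and 45.0, 48.7 and 40.7 TPM with miR-222-3p, at a log2 fold change of -0.24 ± 0.12 (unadjusted p = 0.0479, DESeq2 adjusted p = 1.0). Lrpprc, which stabilises mitochondrial mRNAs, had log2 fold changes of -0.19, -0.24 and -0.18 with the 3 mimics, each with an SE of 0.15. The lowest p in these lists was that of Fastkd2, an RNA-binding protein of mitochondrial ribosome assembly named here after its values were seen. It had 37.9, 36.7 and 37.9 TPM in ctrl, 24.9, 33.0 and 32.7 with miR-142-5p, 30.2, 28.0 and 23.5 with miR-183-5p, and 38.6, 37.1 and 35.0 with miR-222-3p. Its log2 fold change with miR-183-5p was -0.44 ± 0.14 (unadjusted p = 0.00109, DESeq2 adjusted p = 0.978). The coactivator Ppargc1a stayed at or below 0.162 TPM in all tumours, and Ppargc1b at 0.21 to 0.93 TPM; Nrf1, the nuclear respiratory factor, had 16.6 to 25.1 TPM.

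Promoters of the nuclear members were searched for the letters of factors known to act on respiratory genes, because these members moved together between tumours. RefSeq promoters of 300 bases, 250 before and 50 after the start on GRCm38.p6, were found for 66 of the 80. The NRF1 motif GCGCATGCG, on either strand and in overlapping matches, was present in 8 of the 66 (12.1%) and in 3.33% of the 11632 promoters of genes tested. The YY1 motif AAGATGGCG was present in 6 (9.09%, against 2.81%), the GABP motif CCGGAAGT in 5 (7.58%, against 7.47%) and a TATA box, TATAAA, in 5 (7.58%, against 8.45%). These counts are descriptions without a test, and a match does not show binding. A promoter stretch with each of the first 3 motifs is printed with the matching letters, on either strand, in capitals.
Atp5g2, NRF1, from 67 to 8 bases before the start (promoter chr15:102670998-102671297, minus strand): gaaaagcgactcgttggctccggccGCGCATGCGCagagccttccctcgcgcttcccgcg
Ndufs4, YY1, from 11 to 50 bases after the start (promoter chr13:114388045-114388344, minus strand): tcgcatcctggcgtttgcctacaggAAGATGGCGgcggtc
Cox8a, GABP, from 31 bases before to 50 after the start (promoter chr19:7217567-7217866, minus strand): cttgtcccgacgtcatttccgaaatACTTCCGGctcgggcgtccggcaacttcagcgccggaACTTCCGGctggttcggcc
In Cox8a the GABP letters occur on the minus strand of the promoter at both places. The 3 genes had log2 fold changes against ctrl from -0.03 to 0.65 in the 3 comparisons, the upper end being that of Atp5g2, whose reads are shared with its copies.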

How the data were processed

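RNA of 12 tumours, 3 in each of 4 groups taken from the sample labels, was sequenced by the study as stranded poly(A) libraries. The authors quantified transcripts of the mouse (GRCm38) with Salmon and deposited, for each tumour, the estimated count and the TPM (abundance scaled for transcript length and library size) of 118783 transcripts; the study's methods name an earlier Ensembl release than the deposited files carry in their names, so that the release and Salmon version behind these files are uncertain, and the strand setting is not given in the sources used here. For this report, 116710 transcripts (98.3%) were matched to genes with GENCODE mouse release M21, whose coordinates are given, and the deposited estimated counts and TPM were summed per gene. The unmatched transcripts took under 1% of the reads of a library and were left out.

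Estimated counts were rounded and fitted with DESeq2 1.42.0 (R 4.3.3) across all 12 libraries, with group as the factor, the average transcript length as an offset, and genes with at least 10 counts in at least 3 libraries. Each pair of groups was compared with the Wald test and the 4 groups with the likelihood ratio test, two-sided, and p-values were adjusted by Benjamini-Hochberg over all genes. The 3 comparisons with ctrl share the ctrl tumours. Normalised counts are counts divided by the size factors and length offset. The fit was tested on simulated counts, where it recovered the folds put in but called more unchanged genes than the threshold allows, so that adjusted p-values near the threshold may be too small. Alternatives were edgeR 4.0.16 (quasi-likelihood test), other scaling, filters and sample sets, no length offset, a replicate block, copies summed and each tumour left out.

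Near-identical pseudogenes were found with BLAST 2.17.0 (at least 95% identity over at least 80% of the copy). Tables and figures were made with Python 3.11.15, pandas 2.3.3, numpy 2.4.6, scipy 1.17.1 and matplotlib 3.10.9. Genes named with values were all mitochondrial members, tissue isoforms and their counterparts, the extremes of each complex by mean TPM, the 3 largest rises and falls of nuclear members with a mean of at least 100 normalised counts per comparison with ctrl, tested copies, and 8 pathway genes. Members with an unadjusted p under 0.05 or groups that did not overlap were added. The members, gene lists and markers were chosen with earlier results of these data known.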

Additional observations from a re-analysis of the deposited data

Results flagged for a closer look

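Reads of genes below the read filter were found in single treated libraries above their level in ctrl. Cox6a2, the heart and muscle isoform of cytochrome c oxidase subunit 6a, had 6 estimated reads in miR-142-5p tumour 2, 8 in miR-142-5p tumour 3 and 22 in miR-183-5p tumour 3, against at most 4 in a ctrl tumour. Cox8b, the muscle isoform of subunit 8, had 9 estimated reads in miR-183-5p tumour 3 and 0 in each ctrl tumour. The skeletal muscle markers were highest in the same library, at 587 TPM in sum, and their part in these reads was not tested. A second gene identifier named Atp5o had 3.84 estimated reads in miR-183-5p tumour 1 and 0 in the ctrl tumours.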

How the results depend on the processing

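Of 318 alternative values of the main counts, medians and ratios, 312 lay within 1 SD between tumours of the reported value (0.16 for nuclear and 0.26 for mitochondrial medians, 0.23 for ratios, log2) or, for counts, within 1.5 times. Most of these values lie nearer to 0 than that SD, so that their sign could still change: without a tumour, the mitochondrial median ranged from -0.17 to 0.14 with miR-183-5p and from -0.01 to 0.27 with miR-222-3p. The number of members called with miR-222-3p against ctrl was 1 in place of 0 when only those 2 groups were fitted (mt-Nd3, DESeq2 adjusted p = 0.0201), where 16 of all genes were called in place of 4. Leaving out a tumour gave 0 to 1 members called for miR-222-3p against ctrl and over the 4 groups (mt-Nd3 without miR-183-5p tumour 3, DESeq2 adjusted p of 0.0115 and 0.0126, where 16 and 20 of all genes were called), and 0 to 1 for miR-183-5p compared with miR-142-5p (mt-Nd5 without miR-142-5p tumour 1, DESeq2 adjusted p = 0.0482, where 415 of all 15459 genes were called in place of 8). With miR-142-5p against ctrl, the median of the mitochondrial members ranged from -0.128 to 0.387 and the log2 ratio of the genomes from -0.080 to 0.317 when a tumour was left out, the lowest value of both being without miR-142-5p tumour 2. Apart from fewer samples or another set of samples in the fit, the cause was not tested.

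Of 240 nuclear log2 fold changes against ctrl, most of them near 0, 86 changed sign without ctrl tumour 1 and 29 without the length offset. The replicate numbers of the labels gave no sign of pairing the tumours: same-numbered tumours had a mean correlation of -0.07 in their deviations from the group means, against 0.04 for different numbers. Single same-numbered correlations ranged from -0.62 to 0.45, so that a pairing is not excluded. With the replicate block, 0 members were called in each comparison and the median of the mitochondrial members with miR-142-5p was 0.15. With 3 tumours a group and a median standard error of 0.17 for nuclear and 0.23 for mitochondrial members, small differences could not be resolved. Reads divided between a gene and its copy limit, to differing extents, the 11 members with a copy that passed the read filter. Among these are mt-Nd3, mt-Co2, mt-Atp6, Atp5g2, Ndufb4, Ndufa12, Atp5g1 and mt-Co1.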

Other observations

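The nuclear members varied less than genes at large: the SD of log2(normalised count + 1) over the 12 tumours had a median of 0.184 among them, 0.276 among the mitochondrial members and 0.229 over all genes. The most variable members were Cox7a1, an isoform of muscle, with an SD of 0.52, and mt-Nd3 with 0.51, and Ndufs1 was among the least variable with 0.10. These SDs include counting error, which is larger for low genes such as Cox7a1, and the values carry no test.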
